A study of Mus musculus with 24 samples.

Results

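Open chromatin in C57BL/6J liver was compared between high fat diet (HF) and control diet (Control) over 37737 regions of chromosomes 1 to 19, out of 49364 regions in the 6 peak lists of the series. The regions were made from the C57BL/6J HF list and the C57BL/6J Control list by merging peaks that shared 1 bp or more. A region with a peak of the HF list alone is called HF-only, one with a peak of the Control list alone Control-only, and one with a peak of each list shared. The study profiled liver of the inbred mouse strains C57BL/6J and A/J in 24 libraries. C57BL/6J Control mice ate control diet for 16 weeks and C57BL/6J HF mice ate high fat diet for 16 weeks, with 2 FAIRE libraries in each group, so that 4 of the 24 libraries stand behind the comparison. For the values set beside it, A/J mice ate the same diets, and the Reversal mice of both strains were moved to control diet for 8 weeks after 8 weeks on high fat diet. Each group is given as 1 list, so differences between lists were described, without a replicate check and without a test. The labels name no transgene, and sex, age and the number of animals are not given in the sources used here.

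FAIRE recovers the DNA of crosslinked chromatin that is not held by nucleosomes, so its peaks mark promoters, enhancers and other accessible sites. C57BL/6J mice are known to gain weight and liver fat readily on high fat diet, and A/J mice less so. In whole liver, a site open in fewer cells and a site less open in each cell cannot be told apart. The peaks were not tied to genes, so the liver label was not checked against marker genes, and no gene is named at a region. Positions are in mm9, 1-based, and no sequence is shown for them.

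Most of the open chromatin was found on both diets. Of the 37737 regions, 27554 were shared (73.0%, 95% Wilson interval 72.6 to 73.5). HF-only regions numbered 4171, or 11.1% of all regions, and 13.1% (12.8 to 13.5) of the regions of the HF list. Control-only regions numbered 6012, or 15.9% of all regions, and 17.9% (17.5 to 18.3) of the regions of the Control list. These intervals cover counting error only. The Control list was longer, with 33948 autosomal peaks against 32116 on HF, and the excess of Control-only regions is by arithmetic the difference between the 33566 regions of the Control list and the 31725 of the HF list. With both lists at their strongest 32116 peaks, 4733 regions were HF-only and 4768 Control-only, and equal lengths make these counts nearly equal by construction. Regions of 1 list were also short, with a median width of 308 bp for HF-only, 281 bp for Control-only and 529 bp for shared regions. This is the width of the merged region, which in shared regions spans the peaks of both lists. The bases covered there by 1 list had a median of 483 bp on Control and 468 bp on HF.

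The lists differ in where they end. Serial numbers in the peak names, which follow position along each chromosome, ran to 237699 on Control and 159498 on HF over the autosomes, so that the Control list held 14.3% and the HF list 20.1% of the peaks that had been numbered. The lowest listed signal was 0.0849 on Control and 0.0850 on HF, in a unit that is not given. Of the 6012 Control-only regions 3538 had a signal under 0.1, and of the 4171 HF-only regions 2198. The share of all listed peaks under that signal is not given here. Absence from a list therefore does not show that a site was closed.

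Peaks without a counterpart lay mostly in the weaker part of each list. No peak among the strongest 30% of either list lacked one. Between 30 and 40% of the ranking 7 of 3210 HF peaks (0.218%) and 0 of 3399 Control peaks did. Between 40 and 50% of the ranking 55 of 3210 HF peaks (1.71%) and 19 of 3396 Control peaks (0.559%) lacked one. Between 50 and 60% it was 208 of 3215 HF peaks (6.47%) and 161 of 3393 Control peaks (4.75%). From 60% on the order turned, and the Control list parted from the HF list faster than the reverse. Between 70 and 80% the share without a counterpart was 34.9% of Control peaks and 24.8% of HF peaks, and in the weakest 10% it was 66.1% of Control peaks (2232 of 3379) and 45.6% of HF peaks (1464 of 3213). At like rank, unshared Control peaks were narrower than shared ones and unshared HF peaks wider. Between 60 and 70% of the ranking the median width was 295 bp without and 320 bp with a counterpart on Control, and 360 bp without and 318 bp with one on HF.

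**Figure D1:**
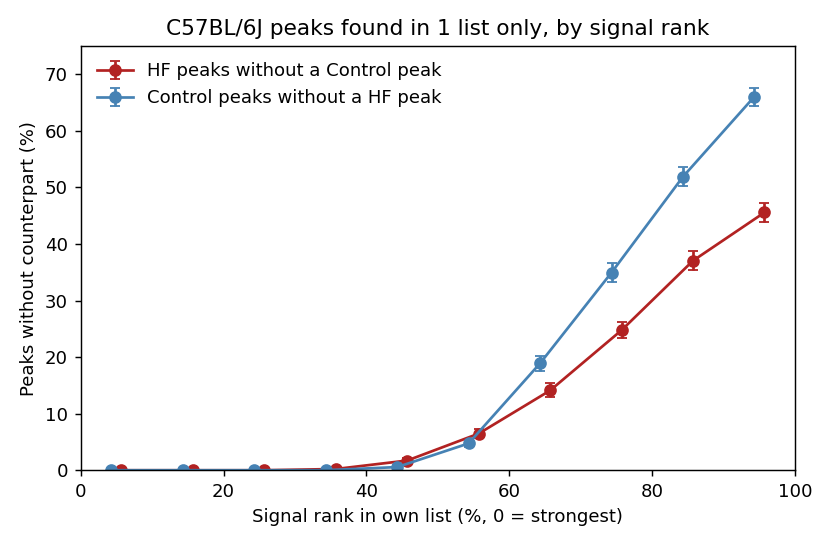
Peaks of each C57BL/6J list that overlap no peak of the other list (y axis, percent) by their signal rank within their own list (x axis, bins of 10%, with 0 the strongest). Bars are 95% Wilson intervals. Both curves start at 0 and end at 45.6% on HF and 66.1% on Control.

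Few unshared regions lay within 500 bp of a peak on the other diet. The nearest Control peak lay a median of 6.58 kb from an HF-only region, and 480 of the 4171 (11.5%) lay within 500 bp of one. The nearest HF peak lay a median of 22.4 kb from a Control-only region, and 519 of the 6012 (8.63%) lay within 500 bp of one. Among shared regions 12.4% had another shared region within 500 bp. HF-only regions sat closer to other open chromatin: 42.1% of them had a shared region within 5 kb, against 24.5% of Control-only regions and 35.8% of shared regions.

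The strongest HF-only region was chr6:49186386-49186680, with an HF signal of 0.299 at 32.9% of the HF ranking. It had no peak in any of the other 5 lists, and the same holds for chr16:35981668-35981980, chr16:3239335-3239952 and chr17:3009906-3010732. Their HF ranks were 33.5, 37.6 and 38.3%. The chromosome 17 region and chr16:3239335-3239952 lie within the first 4 Mb of their chromosomes, at the centromeric end. The fifth, chr4:140836962-140838002, was 1041 bp wide and was open elsewhere. It ranked at 39.2% on HF, 59.0% on C57BL/6J Reversal, 26.0% on A/J Control, 32.1% on A/J HF and 26.8% on A/J Reversal. Of the 6 lists it was absent from C57BL/6J Control alone. Among all 4171 HF-only regions, 815 (19.5%) had no peak in any of the other 5 lists.

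The strongest Control-only regions started lower, at 41.1% of the Control ranking. This was chr16:19713909-19714196, with a Control signal of 0.210, a rank of 83.4% on C57BL/6J Reversal and no A/J peak. The others were chr4:145722275-145723328 at 41.6%, chr19:11943225-11943708 at 43.5%, chr4:145426753-145427482 at 43.6% and chr10:28178800-28179192 at 43.7%. All 5 had a C57BL/6J Reversal peak, at ranks from 64.0 to 83.4%, where 26.1% of all Control-only regions and 78.8% of all regions had one. Both chromosome 4 regions also had an A/J HF peak and no A/J Control peak. The chromosome 10 region had a peak on both of these A/J diets, at 59.1% on HF and 86.1% on Control.

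The A/J lists come from other mice and were not used to form the classes, and they separated HF-only from Control-only regions more than the A/J diets did. Of HF-only regions 68.1% (66.7 to 69.5) held an A/J Control peak and 64.8% (63.3 to 66.2) an A/J HF peak. Of Control-only regions 20.9% (19.9 to 21.9) held an A/J Control peak and 20.7% (19.7 to 21.8) an A/J HF peak. Over all 37737 regions these shares were 69.6 and 71.6%. HF-only regions thus stood near regions in general on A/J Control and somewhat below them on A/J HF, and Control-only regions stood far below on both. Regions with neither of these A/J peaks made up 74.6% of the Control-only class (4482 regions), 29.5% of the HF-only class (1229) and 15.0% of the shared class (4127).

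Few of the regions found in 1 C57BL/6J list were, in A/J, found on that diet alone. An A/J HF peak without an A/J Control peak was found in 102 HF-only regions (2.45%, 2.02 to 2.96), against 4.36% of all regions. The reverse, an A/J Control peak without an A/J HF peak, was found in 240 HF-only regions (5.75%, 5.09 to 6.50), against 2.35% of all regions. Among Control-only regions 284 (4.72%, 4.22 to 5.29) were open on Control alone in A/J and 275 (4.57%, 4.07 to 5.13) on HF alone. Set against all regions, A/J Control alone was therefore more frequent in both classes, while A/J HF alone was less frequent in HF-only regions and near the share of all regions in Control-only ones. These shares include regions with neither A/J peak, 74.6% of Control-only and 26.1% of all regions. Of Control-only regions with an A/J peak, 971 had both diets, 275 HF alone and 284 Control alone. Over all regions these counts were 25364, 1647 and 888. Among regions with an A/J peak, either diet alone was thus more frequent in Control-only regions than over all regions. These values describe 4 lists, and no test was run between strains.

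**Figure D2:**
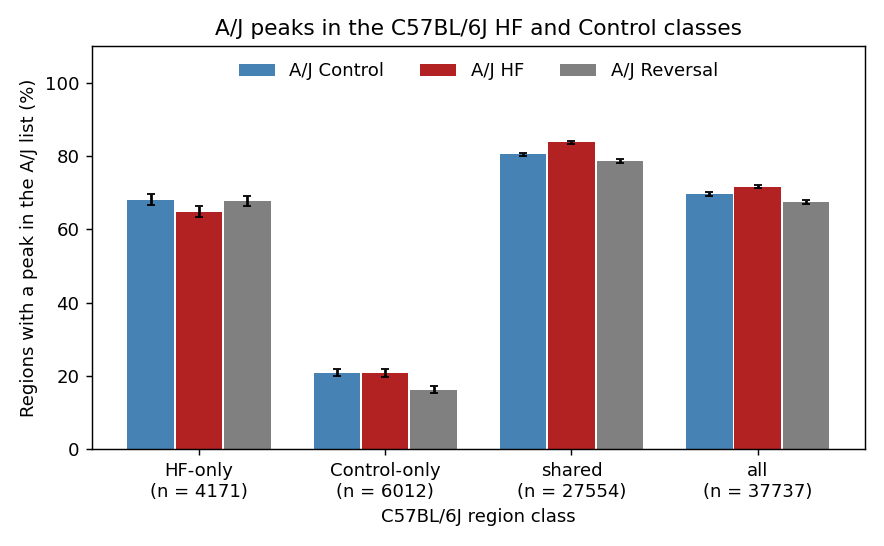
Share of C57BL/6J regions that hold a peak of each A/J list (y axis, percent), for HF-only, Control-only, shared and all regions (x axis), with 95% Wilson intervals as bars. The 3 A/J lists stand near 65 to 68% in HF-only regions and near 16 to 21% in Control-only regions, whatever the A/J diet.

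The split was also seen at like strength within the list. Between 60 and 80% of the ranking, 79.1% of 1247 HF-only regions (76.7 to 81.2) and 21.2% of 1826 Control-only regions (19.4 to 23.2) held an A/J Control peak. In the same range of the HF list 62.4% of 5048 shared regions did, and in the same range of the Control list 63.1% of 4845. In the weakest 20% the shares were 60.9% of 2654 HF-only and 20.8% of 4006 Control-only regions, against 43.1% of shared regions ranked there on HF and 64.0% of those ranked there on Control. At like rank the share with an A/J Control peak was thus higher in HF-only than in shared regions and lower in Control-only than in shared regions, in both ranges.

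Many Control-only regions were found in no other list of the series. Of the 6012, 3754 (62.4%, 61.2 to 63.7) had a peak on C57BL/6J Control alone, against 815 of the 4171 HF-only regions (19.5%, 18.4 to 20.8). In the 6 lists, the share of a list's regions found in that list alone was 11.5% on C57BL/6J Control, 2.64% on C57BL/6J HF, 1.81% on C57BL/6J Reversal, 5.22% on A/J Control, 1.46% on A/J HF and 3.82% on A/J Reversal. The C57BL/6J Control list thus stood apart from the other 5, and it was also the one with the lowest share of numbered peaks listed. Those shares were 18.4% on C57BL/6J Reversal, 26.4% on A/J Control, 22.5% on A/J HF and 30.4% on A/J Reversal. The part of this difference between lists in the HF against Control comparison was not tested.

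A Reversal peak was likelier where A/J liver was open as well. Among HF-only regions 61.7% of the 2541 with a peak in all 3 A/J lists held a C57BL/6J Reversal peak (59.8 to 63.5), against 29.6% of the 1157 with none (27.0 to 32.3). Among Control-only regions 65.0% of the 798 with all 3 A/J peaks held one (61.7 to 68.3), against 15.5% of the 4445 with none (14.5 to 16.6). Shared regions showed the same order at higher shares, with 98.7% of the 21246 with all 3 A/J peaks and 74.0% of the 4077 with none. At an equal number of A/J lists the HF-only and Control-only classes were nearer to each other than as whole classes. As whole classes, 51.1% of HF-only and 26.1% of Control-only regions held a Reversal peak, against 94.5% of shared and 78.8% of all regions.

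Control-only regions had fewer other peaks around them than HF-only or shared regions. Within 100 kb on either side, a median of 2 other A/J Control peaks was found around a Control-only region, 9 around an HF-only region and 7 around a shared region. None was found around 32.6% of Control-only regions (31.4 to 33.8), 4.44% of HF-only (3.85 to 5.10) and 11.1% of shared regions (10.7 to 11.5). With peaks of the C57BL/6J Reversal list in place of A/J Control the shares with none were 23.4, 4.10 and 9.07%. Where no A/J Control peak lay nearby, 39.0% of the Control regions were Control-only and 5.70% of the HF regions were HF-only. Where 10 or more lay nearby the values were 11.1 and 14.8%, so that the order of both classes turned.

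By chromosome, the Control-only share was highest where peaks were sparse. Control-only regions made up 21.9% of Control regions on chromosome 14, 21.2% on chromosomes 1 and 13 and 20.7% on chromosome 3, where the A/J Control list had 9.20 to 10.4 peaks per Mb. On chromosomes 11 and 19, with 25.9 and 21.0 peaks per Mb, they made up 14.1% each. Over the 19 chromosomes Spearman's rho between the Control-only share and the density of A/J Control peaks was -0.90, and for the HF-only share it was 0.04. Counted per Mb, both classes were more frequent on dense chromosomes, with a rho of 0.84 for Control-only and 0.92 for HF-only regions. The HF-only share ranged from 11.6% on chromosome 5 to 15.0% on chromosome 13. Chromosome 19 was the only one of the 19 with more HF-only than Control-only regions, 165 against 156. The 19 points share the same lists, and the values are a description.

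**Figure D3:**
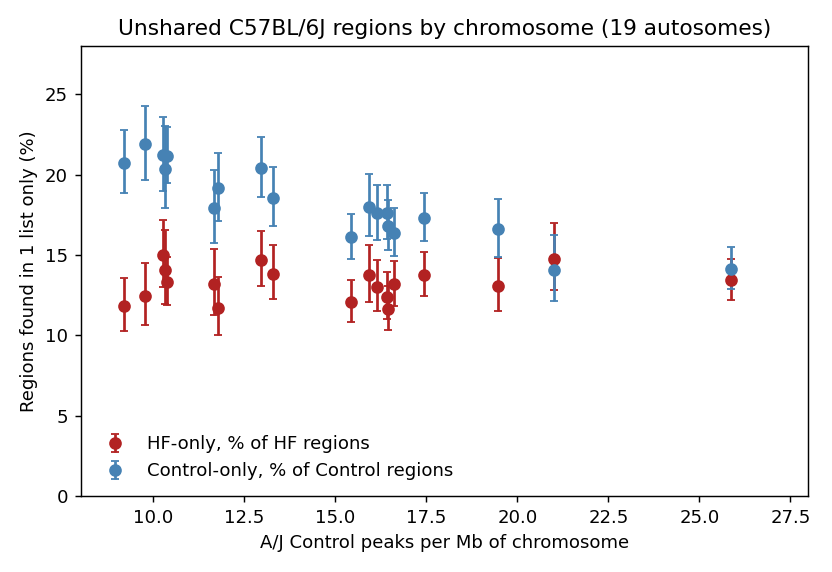
HF-only regions as a share of HF regions and Control-only regions as a share of Control regions (y axis, percent, with 95% Wilson intervals) for each of the 19 autosomes, against the number of A/J Control peaks per Mb (x axis). The Control-only share is near 21 to 22% on the sparse chromosomes 1, 13 and 14 and 14.1% on chromosomes 11 and 19, while the HF-only share shows no such slope.

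Some windows held many unshared regions. Of 2403 windows of 1 Mb with any region, 52 held 10 or more HF-only and 27 held 10 or more Control-only regions, where the median window had 10 regions in all. Windows rich in peaks hold more regions of every class, so these counts alone do not show clustering. Over all regions 11.1% were HF-only and 15.9% Control-only. The window with most HF-only regions was at 3 to 4 Mb of chromosome 17, next to the centromere, since mouse chromosomes carry it at the end where numbering begins. It held 19 HF-only, 2 Control-only and 12 shared regions, and 2 of the 19 had a C57BL/6J Reversal peak and 4 an A/J Control peak. Of all HF-only regions 51.1% had a Reversal peak and 68.1% an A/J Control peak. Next came 78 to 79 Mb of chromosome 15, with 18 HF-only, 9 Control-only and 67 shared regions, and 127 to 128 Mb of chromosome 10, with 16, 3 and 59. The window with most Control-only regions was at 126 to 127 Mb of chromosome 8, with 26 Control-only, 9 HF-only and 63 shared regions. Of the 26, 15 had a Reversal peak, against 26.1% of all Control-only regions. At 85 to 86 Mb of chromosome 1 there were 21 Control-only, 6 HF-only and 41 shared regions. The Control-only ones lay within chr1:85009430-85340897, and none of them had an A/J Control or A/J Reversal peak and 4 an A/J HF peak. A further 16 Control-only regions lay at 90 to 91 Mb of the same chromosome, beside 21 shared ones.

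In shared regions the position of the open site was nearly fixed. Of the 27554, 26830 had 1 peak of each list, and there the summits lay a median of 7 bp apart, with 727 regions (2.71%) apart by more than 100 bp. Splitting was even, with 1 Control peak matched by several HF peaks in 350 regions and 1 HF peak matched by several Control peaks in 347. The strongest shared region of both lists was chr2:98506210-98507704, the next chr4:79648098-79651266, and chr13:85265984-85267350, chr9:35112608-35113383 and chr1:24618139-24623204 were within the first 6 of each list, with widths within 20 bp of each other on both diets. Their signals were 93.9 to 182.7 on Control and 100.7 to 190.6 on HF, where the list medians were 0.168 and 0.177. Peaks in repeated sequence were not marked or removed, here or at the centromeric ends of chromosomes. Such signals were therefore not read as a degree of openness.

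For each shared region the signal was ranked among the 27554 shared regions within each list, so that both scales have the same length, and the change is given in percentage points of that ranking. A change of rank is one of order and does not show that a site gained or lost openness. Spearman's rho between both rankings was 0.92, and 47.9% of the regions moved by less than 5 points. On HF 1508 regions ranked at least 20 points higher (5.47%) and 1170 at least 20 points lower (4.25%). With ranks as percent of the whole lists in place of the shared regions, 1184 ranked higher and 2127 lower, so that the balance of both directions turned with the scale. Of the 5397 regions with a mean rank between 20 and 40%, 6 moved up and 15 down by 20 points or more. Of the 5348 between 40 and 60% 248 and 167 did, and of the 5988 between 60 and 80% 879 and 645 did. At both ends of the ranking the change is bounded, and there 3 and 4 of the strongest 5471 and 372 and 339 of the weakest 5350 regions moved by that much.

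**Figure D4:**
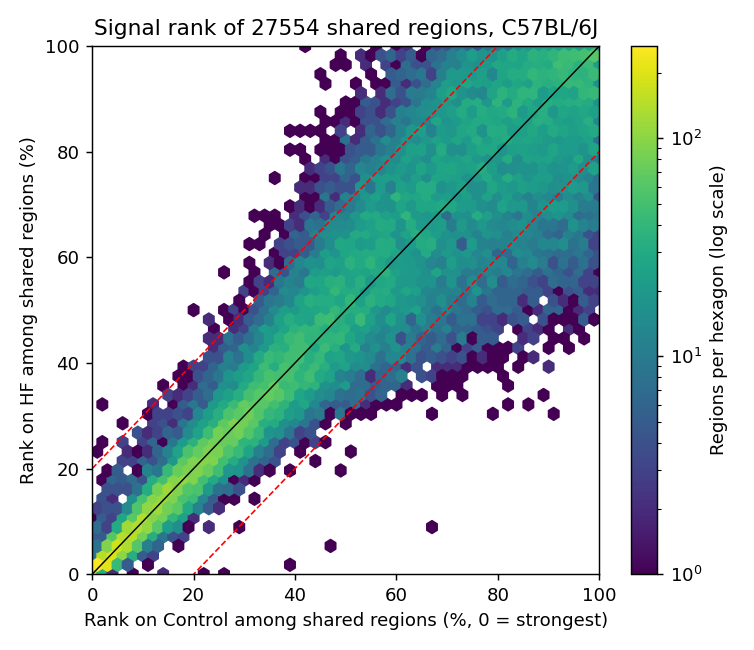
Rank of each of the 27554 shared regions by signal on Control (x axis) and on HF (y axis), in percent of the shared regions with 0 the strongest. Colour gives the number of regions per hexagon on a log scale, the solid line is an equal rank and the dashed lines are changes of 20 points. The cloud is narrow among strong regions and wide beyond a rank of 40%, with a few single regions below the lower dashed line at the left.

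The largest moves were taken among the 14435 regions with 1 peak of each list and a rank in the stronger 50% of shared regions on at least 1 diet. Ranks on C57BL/6J Control and HF are given here among shared regions and those on the other diets and in A/J within the whole list, so that these 2 scales are not compared. Of the 5 largest moves up, 3 lay at the centromeric end of a chromosome. The region chr4:3007136-3012902 went from 90.8% on Control to 29.6% on HF and from 1419 to 5767 bp. It had no Reversal peak in C57BL/6J and ranked at 93.9% on A/J Control and 76.3% on A/J HF. Similarly, chr3:3010955-3011432 went from 97.2 to 44.3% and chr17:3011953-3013890 from 90.8 to 38.8%, and neither had a Reversal peak in C57BL/6J. Within the first 4 Mb of the 19 chromosomes 52 regions were HF-only, 58 Control-only and 255 shared. Chromosome 17 held 19 of the 52, and no other chromosome held more than 8. Over all 37737 regions 11.1% were HF-only, 15.9% Control-only and 73.0% shared. These counts therefore do not show a general excess of HF-only regions at the centromeric ends. The other moves up were chr1:102076674-102077002, from 67.6 to 8.72% with a Reversal rank of 61.7% and no A/J peak, and chr13:34146191-34146681, from 88.1 to 34.4%. The latter had a peak in all other lists, at 28.1% on Reversal, 11.5% on A/J Control and 22.0% on A/J HF.

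The largest move down was that of chr1:87490927-87492238, from 42.5% on Control to 99.9% on HF, while its width went up from 864 to 1312 bp. After it came chr12:106387062-106387440, from 44.7 to 94.7%, chr4:120710087-120710385, from 49.99 to 97.7%, chr1:85272364-85273916, from 48.9 to 95.9%, and chr19:46970238-46970588, from 46.2 to 92.2%. All 5 had a C57BL/6J Reversal peak, with ranks of 49.8 to 62.1% in that whole list. A Reversal peak was also held by 90.3% of the 1170 regions at least 20 points lower and by 94.5% of all shared regions. Of the 5, none had an A/J Control peak, and 3 had an A/J HF peak. The fourth covered more bases on HF, with 871 bp on Control and 1553 bp on HF. It lies within the stretch of 21 Control-only regions at 85 to 86 Mb of chromosome 1.

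Among the stronger shared regions, those with a mean rank up to 40%, 9 moved up and 19 down by 20 points or more. These were singled out after their values were seen. The region chr9:123370885-123371401 stood at 26.6% of the shared ranking on Control and at 0.269% on HF, and at 29.9% of the whole Reversal list. Next to it in strength on HF, chr19:58187703-58188212 went from 21.9 to 0.566% and chr6:3150869-3151668 from 38.7 to 1.09%, with Reversal ranks of 40.4 and 55.3%. Reversal ranks are again those in the whole list. Down moves were headed by chr11:3075057-3080512, from 0.602 to 22.4% and 7.58% on Reversal, and chr7:89919530-89920689, from 2.44 to 31.6% and 11.1% on Reversal. The chromosome 6 and chromosome 11 regions lie within the first 4 Mb of their chromosomes, where peaks in repeated sequence were not marked or removed.

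Few A/J Control peaks lay around regions that ranked lower on HF. No A/J Control peak lay within 100 kb of 468 of the 1170 regions 20 points or more lower (95% Wilson interval 37.2 to 42.8%), against 2.19% of the 1508 regions 20 points or more higher (1.56 to 3.06) and 11.1% of all shared regions. Of the regions that ranked lower, 34.4% held an A/J Control peak (31.7 to 37.1) and 53.2% an A/J HF peak (50.3 to 56.0). Of those that ranked higher, 90.5% (88.9 to 91.9) and 90.9% (89.4 to 92.3) did, and of all shared regions 80.4 and 83.7%. An A/J HF peak with no A/J Control peak was found in 20.3% of the regions that ranked lower (238 regions, 18.1 to 22.7) and in 1.46% of those that ranked higher (22 regions, 0.965 to 2.20), against 4.61% of all shared regions. In A/J the sites that ranked lower on HF in C57BL/6J were thus more often listed on HF than on Control. The same order held for all shared regions, by a smaller margin.

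In regions with a peak in C57BL/6J and A/J on both diets, 21209 in all, the rank changes of the strains went against each other. Ranked among these regions, 602 were at least 20 points higher on HF in C57BL/6J (2.84%), and 500 of them (83.1%) ranked lower on HF in A/J, against 48.1% of all 21209. At least 20 points lower in C57BL/6J were 419 (1.98%), and 305 of them (72.8%) ranked higher on HF in A/J, against 51.8% of all. In A/J 392 of the 21209 regions (1.85%) ranked at least 20 points higher and 254 (1.2%) at least 20 points lower. Spearman's rho between both changes was -0.35 across regions, and it was -0.11 for the change of width. The strains share no library, but regions are not independent replicates, and 1 list stands behind each strain and diet.

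The regions that moved in C57BL/6J were followed across all 6 lists. Among the 20381 regions with a peak in every list, the 532 that ranked at least 20 points higher on HF had a median rank of 88.0% on C57BL/6J Control, 61.5% on HF and 65.3% on Reversal, and of 43.8% on A/J Control, 53.0% on A/J HF and 43.0% on A/J Reversal. The 363 that ranked at least 20 points lower had medians of 59.9, 85.0 and 78.3% in C57BL/6J on Control, HF and Reversal, and of 86.6, 78.1 and 86.4% in A/J. In both sets C57BL/6J Control stood at one end and A/J Control and A/J Reversal at or near the other, with A/J HF between. Rank correlations with C57BL/6J Control were 0.95 for C57BL/6J HF, 0.94 for C57BL/6J Reversal, 0.86 for A/J HF, 0.76 for A/J Control and 0.76 for A/J Reversal. Both sets were chosen on the C57BL/6J Control and HF lists, whose medians therefore follow from the choice.

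**Figure D5:**
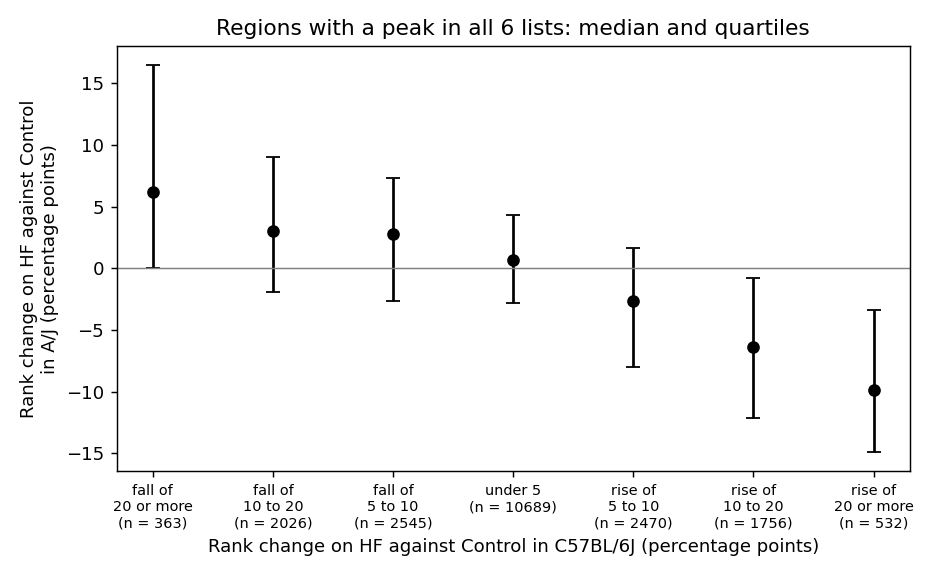
Change of rank from Control to HF in A/J (y axis, percentage points, positive where the region ranked higher on HF) for the 20381 regions with a peak in all 6 lists, grouped by their change in C57BL/6J (x axis). Points are medians and bars quartiles over regions. The median goes from 6.17 points where C57BL/6J ranked lower by 20 or more to -9.91 points where it ranked higher by 20 or more.

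Widths changed little and in both directions. The bases covered in a shared region had a median of 483 bp on Control and 468 bp on HF, and the median log2 ratio of HF to Control was -0.01 with an SD over regions of 0.33. On HF 760 regions were at least 1.5-fold wider (2.76%) and 1381 at least 1.5-fold narrower (5.01%). Width and rank went together, with a Spearman's rho of 0.53 between both changes, which come from the same peaks. Of the 1508 regions at least 20 points higher on HF 234 were wider by that measure and 11 narrower, and of the 1170 regions at least 20 points lower 7 were wider and 125 narrower.

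Among the same 14435 regions the largest change of width was at chr2:27454515-27455912, from 285 bp on Control to 1398 bp on HF, a ratio of 4.91, with a rank of 66.7% on Control and 31.3% on HF. After the centromeric region on chromosome 4 came chr11:106873292-106874800, from 392 to 1509 bp, where the rank hardly moved (29.0 and 30.5%), chr6:113606403-113607661, from 361 to 1259 bp, and chr19:5878094-5879219, from 353 to 1126 bp. All 5 had a peak in each A/J list, as did 21246 of the 27554 shared regions. Among the narrowest on HF were chr1:23768573-23770084, from 1512 to 363 bp, chr13:48356030-48358383, from 2335 to 609 bp, and chr7:51923384-51924960, from 1573 to 414 bp, with rank changes of -8.18, -3.56 and 4.84 points. A further pair lay on chromosome 8, at chr8:126140409-126141823 and chr8:127317073-127318643, the first of them in the window with most Control-only regions.

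In A/J liver, taken alone, the same comparison gave 38052 regions, of which 2451 (6.44%) were HF-only, 5429 (14.3%) Control-only and 30172 shared. At least 20 points higher on HF were 1008 of the A/J shared regions (3.34%) and 952 at least 20 points lower (3.16%), and Spearman's rho between both A/J rankings was 0.94. By width 261 (0.865%) were at least 1.5-fold wider and 1319 (4.37%) narrower. The HF-only share was thus larger in C57BL/6J, by 11.1 against 6.44%, and the Control-only shares were nearer to each other. List length enters these shares, with 35811 autosomal peaks on A/J Control and 33216 on A/J HF. In C57BL/6J the lists held 33948 and 32116. With 1 list per group these differences between strains were not tested.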

How the data were processed

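FAIRE-seq peak lists of mouse liver were used, 1 per strain and diet. Strain and diet of a list follow from its name, and the sources used here do not say if it pools both libraries. Bowtie2, TopHat, DESeq2 and the build mm9 stand in the submitters' processing notes without a role, and no peak caller is named in the sources used here. Each deposited list gives start, end, summit and the authors' signal, in an unstated unit, and is sorted by that signal. No p or q is given. Read depth is unknown. The signal was used to rank and filter peaks within a list. Signals of the lists are also printed beside each other, and regions under 0.1 were counted in both C57BL/6J lists. It is not known if the unit is the same in each list. Peaks on X and Y (1517 on Control, 1255 on HF in C57BL/6J) and the RNA tables were not used.

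Peaks were merged at 1 bp of overlap. A region took the signal of its strongest peak and the summed width of its peaks per list. Tied signals took their mean rank. Region density used peak midpoints within 100 kb, and chromosome length was the highest peak end. Shares have Wilson intervals at 95%. Python 3.11.15, pandas 2.3.3 and SciPy 1.17.1 were used, and merging and ranking were checked on simulated lists. Named regions are the first 5 of each class by signal, mean rank or, among shared regions with 1 peak of each list and a rank in the stronger 50% on either diet, rank change or width ratio, and the 3 fullest windows. The regions and settings were chosen with earlier results of these data known. Overlap, list length, rank scale and thresholds were varied.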

Additional observations from a re-analysis of the deposited data

Results flagged for a closer look

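Ranks here are among the 21209 regions with a peak in C57BL/6J and A/J on both diets. In 53 of them the rank was at least 20 points higher on HF in C57BL/6J and at least 20 lower in A/J. In 71 regions it was the reverse. Of all 21209, 602 (2.84%) ranked that much higher on HF and 419 (1.98%) lower in C57BL/6J. In A/J 392 (1.85%) ranked that much higher and 254 (1.2%) lower. Both sets came up because the strains moved in opposite directions, and no test was run between strains, so this difference was not tested. Moves of that size in the same direction were seen in 2 regions upward and 2 downward. Examples are chr6:72111937-72112552, which C57BL/6J ranked at 97.6% on Control and 60.2% on HF while A/J ranked it at 31.9 and 54.7%, and chr3:67308534-67308975, which C57BL/6J ranked at 43.3 and 77.7% while A/J ranked it at 74.9 and 47.6%.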

How the results depend on the processing

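No paired analysis was possible because each group is given as 1 list, and for the same reason no replicate could be left out. Counts of HF-only and Control-only regions stayed within 1.5 times under an overlap of 50% of the shorter peak, a gap of 500 bp and equal list lengths. With the stronger 50% of each list they were 1295 and 2186, and with the stronger 50% of the own list against the whole other list 62 and 19. At 10 points 4009 regions ranked higher and 4424 lower on HF, and by rank in the whole list 2127 ranked lower. At 2-fold 231 were wider and 456 narrower. With all 4 lists at equal length, 64.4% of HF-only regions held an A/J Control peak and 63.3% an A/J HF peak, and 16.8 and 19.6% of Control-only regions did. In the stronger 50% of regions, an alternative chosen after seeing the data, rho between strains was -0.43 for rank and -0.080 for width change. Without depth or replicates, a list's end and a diet cannot be told apart for weak peaks.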
